A study of Mus musculus with 6 samples.

Results

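The hypoxia-inducible factor (HIF) pathway is described here through 10 genes, taken by symbol from the 23622 genes of the deposited table. They are the oxygen-regulated subunit genes Hif1a and Epas1, the prolyl hydroxylase genes Egln1, Egln2 and Egln3, the ubiquitin ligase gene Vhl, and 4 genes that HIF is known to induce, Ddit4, Vegfa, Bnip3 and Adm. All 10 had values, and all 10 passed the filter of a mean of at least 0.5 FPKM, a read number divided by gene length and library size. The study sequenced poly-T purified mRNA of 6 primary cultures grown from the bone marrow of C57BL/6 mice aged 2 weeks, described as bone progenitors, carried to culture generation 3 and left untreated. Of these, 3 came from wild type mice (control) and 3 from mice labelled Ift140-/- (cko), called cKO below. Ift140 encodes a subunit of the complex that returns cargo from the tip of the primary cilium. The replicates carry the numbers 2, 3 and 4 in each group and are called biological by the series. Neither a Cre line nor the litter of a culture is given in the sources used here, so the p-values measure the spread between these cultures.

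HIF is a pair of proteins, an alpha subunit that is destroyed when oxygen is present and a stable partner, ARNT. The EGLN enzymes use oxygen to hydroxylate the alpha subunit, and VHL then recognises the hydroxylated form and marks it for the proteasome. When oxygen is scarce the alpha subunit persists and switches on genes for glucose use, vessel growth and survival, among them some that feed back on the pathway. In bone this pathway is known for coupling osteoblasts to vessel growth, and marrow is a tissue of low oxygen. Since alpha subunits are controlled mainly through their protein, mRNA levels do not measure HIF activity.

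Between the groups 5 of the 10 genes passed the test (limma, Benjamini-Hochberg adjusted p under 0.05 over all 13326 genes tested), against 7.61% of all genes. Epas1, Egln1 and Egln2 were higher in cKO and Hif1a and Ddit4 lower, where 5.04% of all genes were called higher and 2.57% lower. Egln3, Vhl, Vegfa, Bnip3 and Adm did not pass. In 7 of the 10 genes the values of both groups did not overlap, as in 35.7% of all genes tested. The median log2 fold change of the 10 was -0.10 beside -0.00 over all genes tested, with a range from -0.95 to 0.65. Log2 fold changes come from log2(FPKM + 1), so those of weakly expressed genes such as Egln3 are understated, and ratios of FPKM are given as folds. The calls depended on single libraries. None of the 10 genes (0) was called by limma when control replicate 4 was left out, and 1 was when cKO replicate 3 was left out. The number called was 3 for control replicate 2, cKO replicate 2 and cKO replicate 4, and 6 for control replicate 3. Without control replicate 4, limma had 6 of the 10 at an unadjusted p under 0.05, beside 2721 of all 13326 genes. In the reported fit limma had 3841 of all 13326 genes under it, the background for such counts given below for lists in that fit.

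Facts of the whole series touch each of these values. Ift140 itself had 3.11, 2.75 and 3.05 FPKM in controls 2, 3 and 4 and 1.72, 1.74 and 1.90 FPKM in cKO 2, 3 and 4, so its mRNA was lower but present. Xist, the RNA that coats an inactive X chromosome, was at 0.119 FPKM or less in controls and at 36.7 FPKM or more in cKO, and the Y-linked Ddx3y was at 13.8 to 16.7 FPKM in controls and at 0 to 0.0107 in cKO. Genotype and this sex-linked pattern cannot be told apart in any comparison that follows. Reads recovered from the FPKM summed to between 16489617 and 28945403 per library. Of 12 bone progenitor markers 11 passed the filter, with a summed level of 4389 to 4873 FPKM in controls and 3582 to 4957 in cKO, while Lepr was below it. Most of that sum came from the collagen genes Col1a1, at 2872 to 3141 and 2218 to 3313 FPKM, and Col1a2, at 1007 to 1110 and 684 to 925 FPKM. Of the 11 markers, 6 had log2 fold changes above 0 and 5 below. Twist1 was called higher, from 25.5 ± 1.88 to 50.2 ± 9.35 FPKM, and Prrx1 lower, from 24.0 ± 1.51 to 18.7 ± 0.824 FPKM (SD, n = 3; limma adjusted p = 0.0148 and 0.0312). Macrophage markers were also strong, all 12 past the filter, with sums of 2302 to 2964 and 2853 to 3904 FPKM and 0 calls by limma or by voom, its count-weighted form run on the recovered reads (2 at an unadjusted p under 0.05; smallest limma adjusted p = 0.146, for C1qc). In these bulk cultures, fewer cells of a type and less RNA per cell cannot be told apart.

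**Figure D1:**
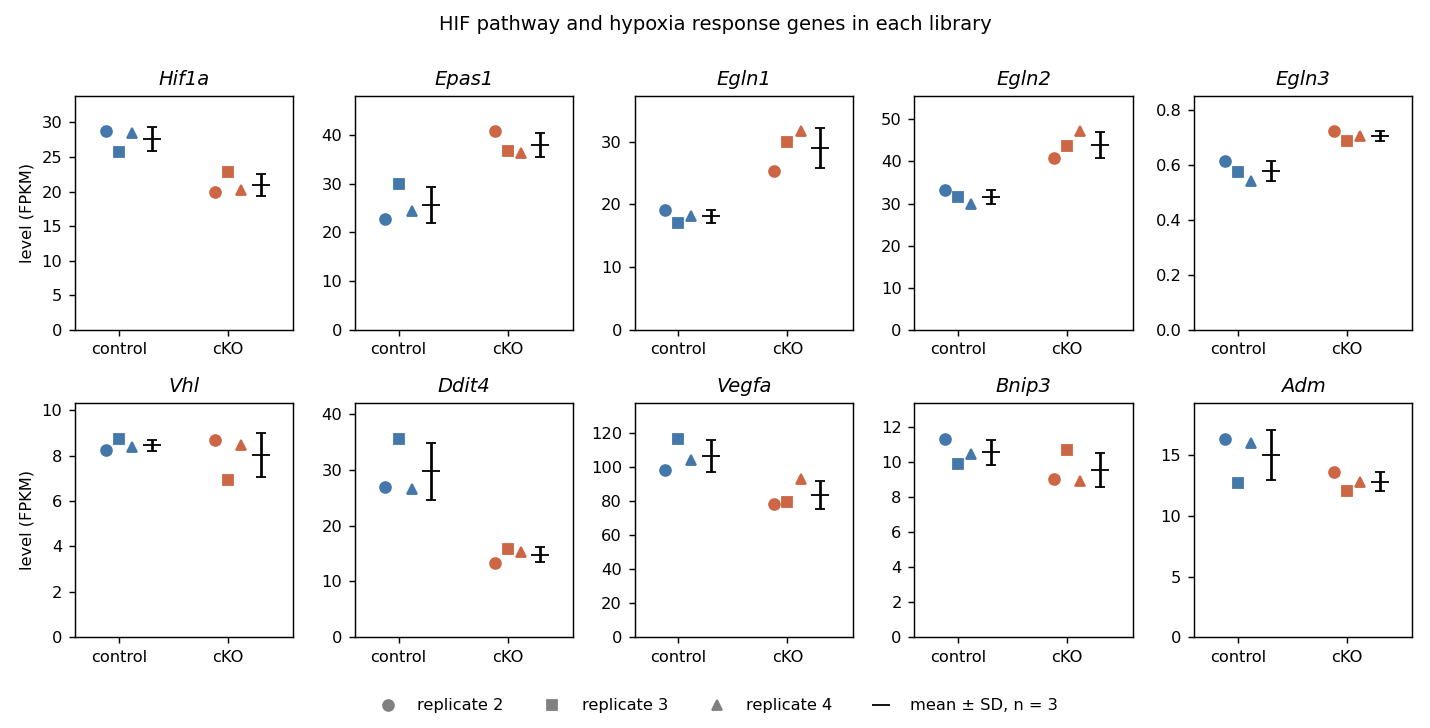
Level in FPKM of the 10 HIF pathway genes in each library, with a panel for each gene and its own vertical axis from 0; points are libraries, shapes are replicate numbers, and bars are the mean ± SD (n = 3). Control and cKO points are apart in 7 panels and overlap for Vhl, Bnip3 and Adm, and the widest relative gap is that of Ddit4, at 26.6 to 35.5 against 13.3 to 15.8 FPKM.

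The alpha subunits moved in opposite directions. Hif1a, which encodes the alpha subunit found in nearly all cells (ENSMUSG00000021109; chromosome 12, 73901375 to 73947530, plus strand of GRCm38 in GENCODE vM21), had 28.7, 25.7 and 28.4 FPKM in controls 2, 3 and 4, and 20.0, 22.8 and 20.2 FPKM in cKO 2, 3 and 4. Every cKO library was below every control library, from 27.6 ± 1.67 to 21.0 ± 1.58 FPKM (SD, n = 3), and 76.0% of the control level remained. The log2 fold change was -0.38 (SE 0.08, limma adjusted p = 0.0329). With a single library left out the call of Hif1a held only without control replicate 3, with log2 fold changes between -0.44 and -0.35. The antisense gene Gm15283 shares 330 exonic bases with Hif1a on the other strand, and whether the counting used strand is not given in the sources used here. Gm49321, annotated as protein-coding and absent from the deposited table, shares 148 exonic bases with Hif1a on the same strand.

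Epas1, which encodes HIF-2 alpha, an alpha subunit prominent in vessel lining and in cells that make erythropoietin (ENSMUSG00000024140; chromosome 17, 86753700 to 86833410, plus strand), had 22.8, 29.8 and 24.4 FPKM in controls 2, 3 and 4. In cKO 2, 3 and 4 it had 40.8, 36.7 and 36.3 FPKM. The groups did not overlap, control replicate 3 was the highest control, and the mean rose 1.48-fold, from 25.7 ± 3.71 to 37.9 ± 2.46 FPKM (SD, n = 3; log2 fold change 0.55, SE 0.11, limma adjusted p = 0.0308). With a single library left out this call too held only without control replicate 3, with log2 fold changes between 0.47 and 0.66. Endothelial markers, the list in which Epas1 is known to be high, were low: 11 of 12 passed the filter, their summed level was 32.0 to 42.8 FPKM in controls and 27.0 to 30.8 FPKM in cKO, and Erg and Emcn were called lower. Of the 11 tested, 10 had log2 fold changes below 0 and 1, Sox17, above 0. Sox17, with 3.34 ± 0.928 FPKM for controls and 4.37 ± 0.405 FPKM for cKO (SD, n = 3), was not called (limma adjusted p = 0.205). The part of endothelial cells in the level of Epas1 was not tested.

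As the reads are scaled per length, both subunits can be set side by side. The ratio of Hif1a to Epas1 was 1.26, 0.860 and 1.17 in controls 2, 3 and 4 and 0.490, 0.622 and 0.555 in cKO 2, 3 and 4. Hif1a mRNA thus exceeded Epas1 mRNA in controls 2 and 4, was below it in control 3, and was below it in each cKO library. Their sum differed less, with 53.3 ± 2.06 FPKM for controls and 58.9 ± 2.18 FPKM for cKO (SD, n = 3). The ratio and the sum were chosen after the values were seen and were not tested.

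**Figure D2:**
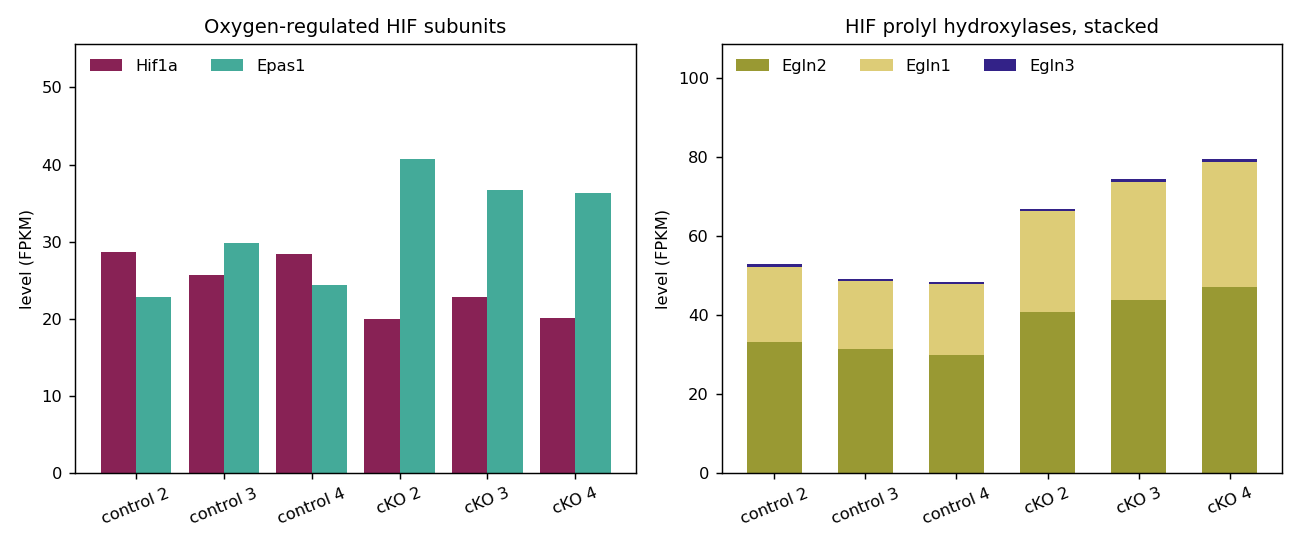
Left, level in FPKM of Hif1a and Epas1 in each of the 6 libraries; right, the levels of Egln2, Egln1 and Egln3 stacked on each other in the same libraries, both from 0. The taller bar on the left is Epas1 in each cKO library, and the stacks on the right reach 48.4 to 52.8 FPKM in controls and 66.9 to 79.5 in cKO.

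Of the genes of the oxygen sensors, Egln1 and Egln2 were higher and Egln3 did not pass. EGLN1, also called PHD2, is the main HIF prolyl hydroxylase of most cells and its gene is itself induced by HIF. Egln1 (ENSMUSG00000031987; chromosome 8, 124908587 to 124949324, minus strand) had 19.0, 17.1 and 18.1 FPKM in controls 2, 3 and 4 and 25.4, 30.0 and 31.6 FPKM in cKO 2, 3 and 4. The lowest cKO library lay above the highest control, and the mean rose 1.61-fold, from 18.1 ± 0.970 to 29.0 ± 3.25 FPKM (SD, n = 3; log2 fold change 0.65, SE 0.09, limma adjusted p = 0.0148). The call was lost when control replicate 4 was left out (log2 fold change 0.65, adjusted p = 0.0729) and when cKO replicate 3 was (0.62 and 0.0614).

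Egln2, the gene of PHD1 (ENSMUSG00000058709; chromosome 7, 27158658 to 27166802, minus strand), was the most abundant of the sensors. It had 33.2, 31.5 and 29.8 FPKM in controls 2, 3 and 4 and 40.8, 43.7 and 47.2 FPKM in cKO 2, 3 and 4, again without overlap. The mean rose 1.39-fold, from 31.5 ± 1.68 to 43.9 ± 3.18 FPKM (SD, n = 3; log2 fold change 0.47, SE 0.07, limma adjusted p = 0.0190). Its longest transcript has 62.2% GC, and after each library was corrected for its trend with GC content the log2 fold change was 0.16 and the adjusted p 0.113. The call did not hold without control replicate 4 or cKO replicate 3 either (adjusted p = 0.0854 and 0.0728). Cyp2t4 shares 11 exonic bases with Egln2 on the other strand.

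Egln3, the gene of PHD3, which is strongly induced by low oxygen in many cells (ENSMUSG00000035105; chromosome 12, 54178981 to 54203860, minus strand), was close to the filter. It had 0.615, 0.574 and 0.543 FPKM in controls 2, 3 and 4 and 0.722, 0.687 and 0.704 FPKM in cKO, from 30 to 53 reads per library. The groups did not overlap, but the change did not pass (1.22-fold, log2 fold change 0.11, SE 0.08, limma adjusted p = 0.396). Summed over the family, the level of the sensors was 50.1 ± 2.35 FPKM for controls and 73.6 ± 6.34 FPKM for cKO (SD, n = 3). Egln1 made up 36.0% ± 1.27 of that sum in controls and 39.3% ± 1.25 in cKO. Egln2 made up 62.8% ± 1.25 and 59.7% ± 1.15, and Egln3 1.15% ± 0.0267 and 0.962% ± 0.102. These sums and shares were not tested.

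Vhl, the subunit that recognises hydroxylated HIF (ENSMUSG00000033933; chromosome 6, 113623959 to 113631633, plus strand), had 8.26, 8.74 and 8.39 FPKM in controls 2, 3 and 4 and 8.68, 6.93 and 8.47 FPKM in cKO. The groups overlapped, with cKO replicate 3 the lowest library (log2 fold change -0.07, SE 0.09, limma adjusted p = 0.622), and the sign turned without cKO replicate 3 (log2 fold change 0.02, adjusted p = 0.898). Among 10 genes that act beside these enzymes, 2 were higher and 0 lower, with a median log2 fold change of -0.13. Siah2 encodes a ubiquitin ligase that is known to target EGLN2 and EGLN3 for destruction. It had 10.1, 8.78 and 8.12 FPKM in controls 2, 3 and 4 and 17.9, 21.7 and 24.4 FPKM in cKO 2, 3 and 4, a 2.37-fold rise without overlap (log2 fold change 1.15, SE 0.12, limma adjusted p = 0.00849). P4htm, the gene of a membrane-bound prolyl hydroxylase, rose from 1.04 ± 0.0262 to 1.81 ± 0.329 FPKM (SD, n = 3; limma adjusted p = 0.0457), and its call was lost whichever single library was left out. Without control replicate 4 the adjusted p of Siah2 was 0.0513.

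Of the partner subunits and co-activators, 4 of 5 listed genes passed the filter and none was called by limma or by voom (1 at an unadjusted p under 0.05). Arnt, the gene of the stable partner, had 10.8, 9.92 and 10.6 FPKM in controls 2, 3 and 4 and 9.57, 10.3 and 10.4 FPKM in cKO, with overlap (log2 fold change -0.04, SE 0.06, limma adjusted p = 0.695). Arnt2 was at 1.42, 1.36 and 1.58 against 1.20, 1.12 and 0.915 FPKM (limma adjusted p = 0.129), and Hif3a was below the filter.

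Of the genes that HIF is known to induce, Ddit4 fell. It encodes REDD1, an inhibitor of the growth kinase complex mTORC1 that low oxygen, DNA damage, glucocorticoids and amino acid stress are all known to raise (ENSMUSG00000020108; chromosome 10, 59949669 to 59951834, minus strand). Ddit4 had 26.9, 35.5 and 26.6 FPKM in controls 2, 3 and 4 and 13.3, 15.8 and 15.2 FPKM in cKO 2, 3 and 4, from 384 to 1292 reads per library. The highest cKO library was below the lowest control by a wide margin, control replicate 3 stood above the other controls, and 49.7% of the control mean remained (29.7 ± 5.05 to 14.8 ± 1.32 FPKM, SD, n = 3). This was the largest change among the 10 genes (log2 fold change -0.95, SE 0.12, limma adjusted p = 0.0126), and with a single library left out the call was lost only without control replicate 4 (log2 fold change -1.02, adjusted p = 0.0541). For each of the 5 called genes the 2-sided exact permutation p of the difference in FPKM was 0.1, the smallest that 3 against 3 can give.

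Genes around mTORC1 and genes known to respond to glucocorticoids were listed beside Ddit4. Of 15 genes of mTORC1 and its inhibitors limma called 1 higher and 0 lower, and voom 1 higher and 1 lower (median log2 fold change -0.05). The gene called by limma was Akt1s1, which encodes PRAS40, an inhibitor within the complex. It had 50.3, 46.7 and 43.7 FPKM in controls 2, 3 and 4 and 57.4, 63.4 and 67.2 FPKM in cKO. Its log2 fold change was 0.41 (limma adjusted p = 0.0341), and the GC correction took it to 0.14 (adjusted p = 0.181). Of 9 glucocorticoid-induced genes past the filter none was called (limma; voom called 1, lower, and 3 had an unadjusted p under 0.05; median log2 fold change 0.05). Fkbp5, a chaperone of the glucocorticoid receptor, went from 5.57 ± 0.539 to 4.02 ± 0.540 FPKM (SD, n = 3; limma adjusted p = 0.0650), and Nfkbia, the inhibitor of NF-kB, from 25.0 ± 1.21 to 29.2 ± 1.54 FPKM (limma adjusted p = 0.0885). Without control replicate 3, 3 of the 9 were called lower. Sgk1, the gene of a glucocorticoid-induced kinase, chosen after its values were seen, had 30.9, 8.82 and 34.6 FPKM in controls 2, 3 and 4 and 11.4, 12.4 and 13.0 FPKM in cKO (limma adjusted p = 0.328). Errfi1, the gene of an inhibitor of EGF receptor signalling and likewise chosen, had 36.4, 19.6 and 42.6 against 18.1, 20.0 and 20.6 FPKM (limma adjusted p = 0.158). In both, control replicate 3 lay far below the other controls, below every cKO library for Sgk1 and among them for Errfi1. The part of glucocorticoid response in the change of Ddit4 was not tested.

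Vegfa, the main growth factor of vessel lining (ENSMUSG00000023951; chromosome 17, 46016993 to 46032369, minus strand), was the most abundant of the 10 genes. It had 98.0, 116 and 104 FPKM in controls 2, 3 and 4 and 78.2, 79.2 and 93.1 FPKM in cKO 2, 3 and 4. The groups did not overlap, and the cKO mean was 78.8% of the control mean, but the change did not pass (106 ± 9.41 and 83.5 ± 8.32 FPKM, SD, n = 3; log2 fold change -0.34, SE 0.10, limma adjusted p = 0.0780). It was under the threshold with quantile normalization (adjusted p = 0.0405), with library weights (0.0203) and with voom on the recovered reads (0.0412).

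Of the other ligand genes, Vegfb and Vegfc were higher. Of 8 genes for VEGF ligands and receptors past the filter, limma called 2 higher and none lower, and voom called 2 higher and 1 lower. Their log2 fold changes were above 0 in 4 and below 0 in 4, with a median of 0.02. Vegfb, a ligand of VEGFR1 linked to lipid uptake, had 15.4, 7.94 and 12.8 FPKM in controls 2, 3 and 4 and 21.3, 24.8 and 23.6 FPKM in cKO (1.93-fold, limma adjusted p = 0.0466). Vegfc, the growth factor of lymphatic vessels, had 2.43, 4.73 and 1.82 FPKM in controls and 12.0, 6.13 and 9.04 FPKM in cKO (3.02-fold, log2 fold change 1.36, SE 0.31, limma adjusted p = 0.0473). Both lay near the threshold. Pgf and Vegfd, the genes of the remaining ligands, were not called, at 29.7 ± 3.40 and 25.3 ± 2.40 FPKM for Pgf and 0.746 ± 0.116 and 0.597 ± 0.181 FPKM for Vegfd in control and cKO (SD, n = 3; limma adjusted p = 0.209 and 0.489). With a single library left out, Vegfb was called only without control replicate 2 or 3, and Vegfc only without control replicate 3. After the GC correction the log2 fold change of Vegfb was 0.61 (adjusted p = 0.110) beside 0.94 before it. Vegfa made up 69.9% ± 1.48 of the summed ligand FPKM in controls and 58.9% ± 3.07 in cKO (SD, n = 3; not tested), and the receptor gene Flt1 was below the filter.

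Bnip3 and Adm overlapped between groups. Bnip3, the gene of a mitophagy receptor of the outer mitochondrial membrane (ENSMUSG00000078566; chromosome 7, 138890836 to 138909519, minus strand), had 11.3, 9.90 and 10.5 FPKM in controls 2, 3 and 4 and 9.02, 10.7 and 8.94 FPKM in cKO (log2 fold change -0.13, SE 0.08, limma adjusted p = 0.340). The antisense gene Gm45507, absent from the deposited table, shares 504 exonic bases with Bnip3 on the other strand. Among 13 other mitophagy genes past the filter only Fkbp8, a receptor that binds LC3, was called, from 46.6 ± 3.54 to 59.4 ± 3.90 FPKM (SD, n = 3; limma adjusted p = 0.0479), and after the GC correction its log2 fold change was 0.01. Adm, the gene of the vasodilator peptide adrenomedullin (ENSMUSG00000030790; chromosome 7, 110627661 to 110629820, plus strand), had 16.4, 12.7 and 16.0 FPKM in controls 2, 3 and 4 and 13.6, 12.1 and 12.8 FPKM in cKO. Control replicate 3 lay among the cKO libraries (log2 fold change -0.21, SE 0.10, limma adjusted p = 0.240), and without it the change was called (log2 fold change -0.32, adjusted p = 0.0483). None of 5 genes for adrenomedullin ligands and receptor subunits past the filter was called by limma or by voom (3 at an unadjusted p under 0.05). Ramp1, a receptor subunit, went from 4.38 ± 0.886 to 2.86 ± 0.132 FPKM (limma adjusted p = 0.0691), and Crcp, a receptor component, from 16.4 ± 1.22 to 13.7 ± 0.867 FPKM (limma adjusted p = 0.0925).

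The wider set of HIF targets held few calls. Of 23 target genes of glucose use, all past the filter, none was called by limma or by voom (4 at an unadjusted p under 0.05). Their log2 fold changes ran from -0.34 to 0.17, and 17 of the 23 were below 0 (median -0.09), beside 6698 of all 13326 genes tested. This list was chosen with earlier results of these libraries known. Pgk1, a glycolytic kinase gene and a standard HIF target, had 122, 111 and 118 FPKM in controls 2, 3 and 4 and 94.2, 102 and 99.4 FPKM in cKO, without overlap (log2 fold change -0.24, SE 0.06, limma adjusted p = 0.0680). Pfkfb4, whose enzyme tunes glycolysis, had 6.03, 8.44 and 6.25 against 4.75, 5.48 and 5.40 FPKM (limma adjusted p = 0.133).

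Among 32 targets outside glucose use 1 rose and 2 fell, with a median log2 fold change of -0.07. With voom on the recovered reads 3 were higher and 5 lower, where voom called 1105 of all 13326 genes higher and 466 lower. Plod2, the gene of a lysyl hydroxylase that sets collagen cross-links, had 29.3, 35.9 and 31.0 FPKM in controls 2, 3 and 4 and 16.8, 18.4 and 18.5 FPKM in cKO, so that 55.8% of the control mean remained (log2 fold change -0.80, SE 0.09, limma adjusted p = 0.00849). Tfrc, the transferrin receptor gene, had 9.10, 8.74 and 7.82 FPKM in controls and 11.6, 10.9 and 11.2 FPKM in cKO (1.31-fold, limma adjusted p = 0.0300). In neither Plod2 nor Tfrc did the groups overlap. The lists are no independent support for a direction, since they were chosen with earlier results of these libraries known. Over all 9 related lists 9 of 118 genes past the filter were called, 7 higher and 2 lower, a share close to the 7.61% of all genes. Those counts moved with the libraries: when control replicate 4 was left out limma called 0 of these genes (27 at an unadjusted p under 0.05), when cKO replicate 3 was left out 2, when cKO replicate 2 or 4 was left out 4, and when control replicate 3 was left out 14.

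**Figure D3:**
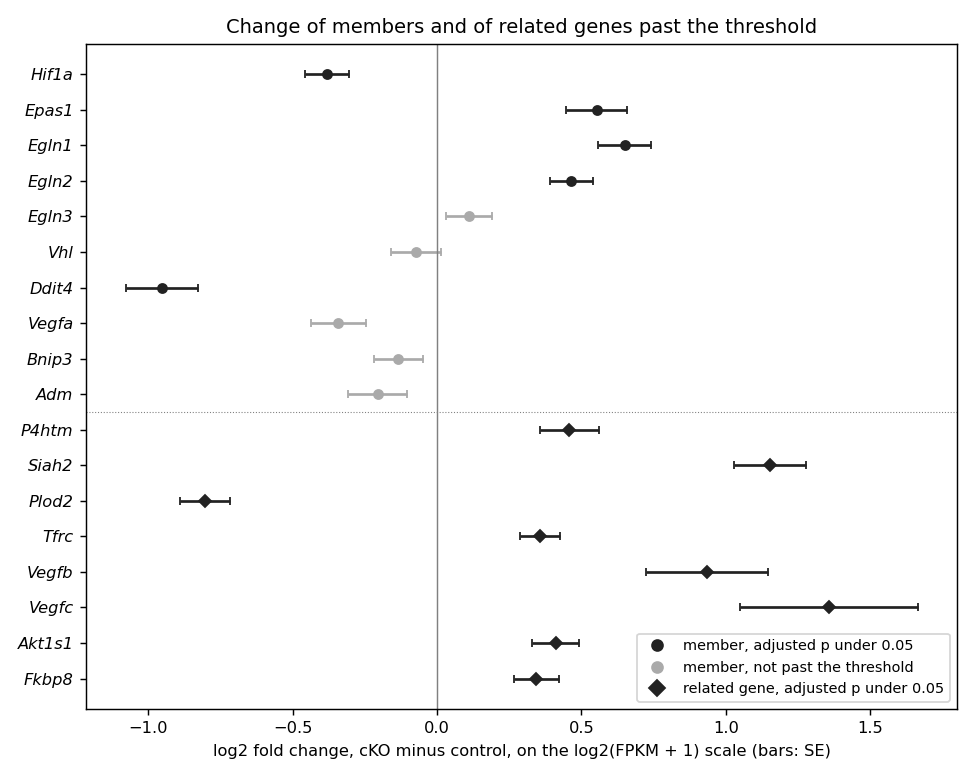
Log2 fold change of cKO minus control on the log2(FPKM + 1) scale for the 10 HIF pathway genes (circles) and for 8 related genes past the threshold (diamonds); bars are SE, and grey marks genes that did not pass. Ddit4 and Plod2 lie at -0.95 and -0.80, while Vegfc at 1.36 and Siah2 at 1.15 lie farthest to the right.

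HIF binds DNA at a short core motif, ACGTG or GCGTG, and promoter sequence from RefSeq (GRCm38.p6) was available for 9 of the 10 genes, all but Epas1. In the 250 bases before the annotated start, on either strand and with overlapping matches counted once, 38.6% of 32851 promoters hold at least 1 such core and 13.7% hold 2 or more. Of the 9 genes, 8 hold 1 or more in at least 1 of their promoters, and Vhl holds none. This count is per gene, whereas the shares above are per promoter, over the promoters of 27025 genes. The share per gene was not computed, so the count cannot be read against 38.6%. The window of Egln2 holds 4 at its first promoter and that of Bnip3 holds 4, those of Ddit4, Egln1, Adm and Hif1a hold 2 each, and that of Egln3 holds 1. Vegfa has 2 listed starts, with 0 cores at one and 2 at the other. The window of Hif1a (73907617 to 73907866) lies wholly inside the gene as GENCODE vM21 places it. So does the Vegfa window with 2 cores (46025164 to 46025413). The sequences are shown for a gene that fell, for both hydroxylase genes that rose and for one that did not pass, cut where the gene begins in GENCODE vM21, with core motifs in capitals (the second core of Egln1 lies past that point).
Ddit4 (chr10:59951835-59952020, minus strand): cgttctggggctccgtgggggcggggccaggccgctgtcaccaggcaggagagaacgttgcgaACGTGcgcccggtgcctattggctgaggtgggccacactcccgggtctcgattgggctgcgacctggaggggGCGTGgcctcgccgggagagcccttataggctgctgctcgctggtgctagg
Egln1 (chr8:124949325-124949504, minus strand): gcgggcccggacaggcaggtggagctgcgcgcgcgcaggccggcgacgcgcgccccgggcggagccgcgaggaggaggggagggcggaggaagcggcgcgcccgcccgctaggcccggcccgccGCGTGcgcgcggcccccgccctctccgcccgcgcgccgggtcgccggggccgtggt
Egln2 (chr7:27166803-27167052, minus strand): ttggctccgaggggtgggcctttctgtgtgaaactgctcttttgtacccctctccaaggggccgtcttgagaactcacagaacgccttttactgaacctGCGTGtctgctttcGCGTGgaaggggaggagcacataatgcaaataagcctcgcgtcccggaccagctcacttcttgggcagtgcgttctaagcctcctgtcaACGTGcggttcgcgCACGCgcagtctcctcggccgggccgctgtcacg
Bnip3 (chr7:138909520-138909756, minus strand): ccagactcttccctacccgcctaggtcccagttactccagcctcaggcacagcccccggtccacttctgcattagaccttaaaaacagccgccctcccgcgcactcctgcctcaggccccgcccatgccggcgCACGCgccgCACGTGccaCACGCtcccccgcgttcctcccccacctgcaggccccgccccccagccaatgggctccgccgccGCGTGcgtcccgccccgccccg
Genes with cores thus include Ddit4, which fell, Egln1 and Egln2, which rose, and Bnip3, which did not pass. A match in these letters is a description and not a bound site.

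The order of the levels was Vegfa, Egln2, Ddit4, Hif1a, Epas1, Egln1, Adm, Bnip3, Vhl and Egln3 in controls. In cKO it was Vegfa, Egln2, Epas1, Egln1, Hif1a, Ddit4, Adm, Bnip3, Vhl and Egln3. In controls the libraries of Egln2, Ddit4, Hif1a and Epas1 overlapped from one gene to the next, so that this stretch of the order lies within their spread. In cKO neighbours overlapped only for Ddit4 and Adm. The upper and lower ends, Vegfa and Egln3, were the same in both groups, while Ddit4 went from the 3rd to the 6th place and Epas1 from the 5th to the 3rd.

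Of the 11740 other protein-coding genes tested, those most like each called gene were ranked by the root mean square difference of their log2(FPKM + 1) values over the 6 libraries, each gene centred on its own mean. Nearest to Ddit4 were Tubb2b, Plod2 and Steap1 (differences 0.10, 0.10 and 0.10), so the nearest genes include Plod2, described above. Nearest to Egln1 were B4galt2, Tesk1 and Fgr (0.02, 0.03 and 0.04), and nearest to Egln2 were Gas2l1, Hps6 and Fbxo31 (0.02, 0.03 and 0.03). For Hif1a they were Lig3, Ivns1abp and Dcaf6 (0.04, 0.05 and 0.05), and for Epas1 they were Enho, Mrm1 and Mdfi (0.06, 0.07 and 0.07). They were chosen for values close to those of called genes, so their own calls say nothing further.

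Other cell types moved beside these genes, and their part in the results was not tested. Among 7 adipocyte markers 4 passed the filter and 2 were called higher, Adipoq and Cebpa, with summed levels of 96.2 to 123 FPKM in controls and 234 to 254 FPKM in cKO. Cebpa, which myeloid cells also express, made up most of that sum, at 77.5 to 102 FPKM in controls and 209.6 to 231 FPKM in cKO, beside 0.108 to 0.314 and 1.82 to 1.93 FPKM for Adipoq. Pparg was at 16.0 ± 0.935 and 16.2 ± 2.09 FPKM (limma adjusted p = 0.936), and Lep was at 0.0173 FPKM or less in every library. Granulocyte markers summed to 5.72 to 42.6 FPKM in controls and 85.7 to 263 FPKM in cKO, with 5 of 8 past the filter and none called (limma; voom called 3, and 5 had an unadjusted p under 0.05; smallest limma adjusted p = 0.0574, for S100a8). Smooth muscle and pericyte markers, all 8 past the filter, summed to 4769 to 5504 and 4216 to 4828 FPKM, with Rgs5 called lower. Chondrocyte markers summed to 194 to 249 and 279 to 406 FPKM, with 4 of 6 past the filter and none called (limma; voom called 2, and 2 had an unadjusted p under 0.05; smallest limma adjusted p = 0.0695, for Col2a1). Col2a1 made up most of that sum, at 172 to 229 FPKM in controls and 250 to 381 FPKM in cKO. The 4 tested markers had log2 fold changes above 0, while Acan and Col9a1, below the filter, had lower means in cKO. The erythroid and lymphocyte markers in the table summed to at most 0.342 and 1.72 FPKM in any library.

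**Figure D4:**
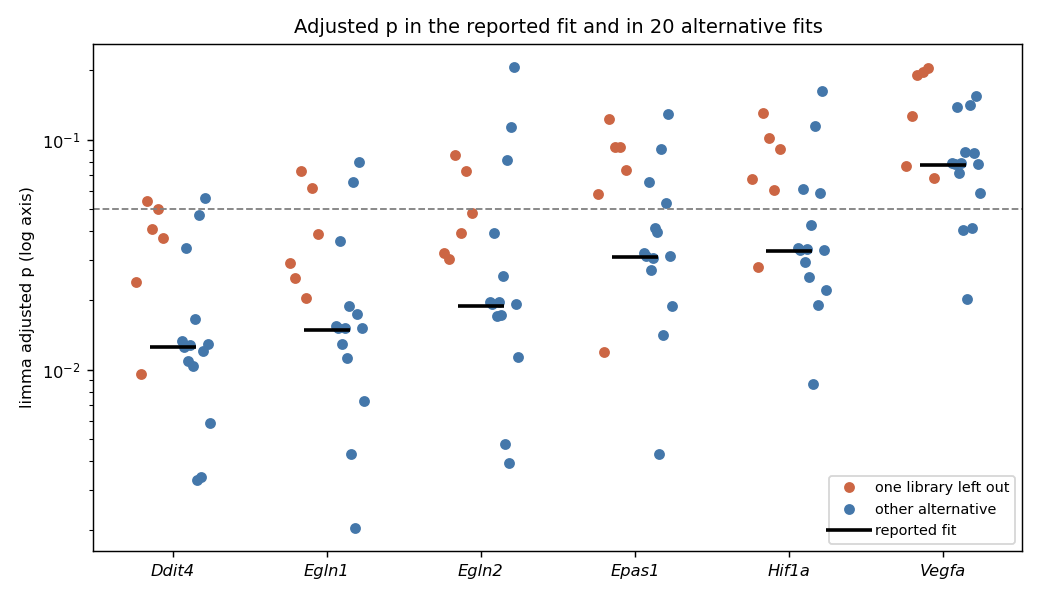
Limma adjusted p on a log axis for the 5 called genes and Vegfa, in the reported fit (black lines), in the 6 fits that leave out a library (orange) and in the 14 other alternatives (blue); the dashed line is the threshold of 0.05. Ddit4 lies under the line in 18 of 20 alternatives, Egln1 in 16, Egln2 in 15, Epas1 and Hif1a in 11 each and Vegfa in 3.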

How the data were processed

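Messenger RNA of 6 primary cultures was prepared with a NEBNext Ultra kit after poly-T purification, per the labels' protocols. The authors deposited one table of FPKM with a column for each culture. Per the submitters' processing notes, HTSeq 0.6.0 and DESeq2 1.10.1 were among the tools, without their roles. Aligner, build, annotation and strandedness: not given in the sources used here. Within a gene, FPKM moves in steps of 1 read. This gave back whole reads for 23426 of the 23427 genes above 0 (within 1e-04 of a read), using the annotated exon length where it fits, and otherwise the nearest length that does or, from 40 reads up, the shortest. The denominators behind the FPKM were within 0.232% of a common multiple of median-ratio size factors of those reads, while gene reads over denominator ran from 0.960 to 1.02, so the deposited FPKM are already scaled between libraries.

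Symbols, positions and exons came from GENCODE vM21 (GRCm38), which held 99.5% of the identifiers; Ero1a is listed there as Ero1l. GC content is that of a gene's longest transcript. Groups were taken from the titles, 3 libraries each. The 13326 genes whose mean reached 0.5 FPKM were tested as log2(FPKM + 1) with limma 3.58.1 in R 4.3.3 (moderated test with intensity trend, no covariate, 2-sided, Benjamini-Hochberg adjustment over all tested genes, threshold 0.05). The procedure was also run on simulated reads with the same spread setting for every gene. That run does not show how well calls hold in these libraries. The text names every member, the 3 genes most like each called member and, per related list, at most 4 called genes (largest change first) or, with no call, the 2 of lowest unadjusted p. Members, lists and most alternatives were chosen with earlier results of these data known. Epo and Calcoco2 of the related lists and Hba-a1, Hba-a2, Hbb-bs, Cd3e and Cd3g of the marker lists were not analysed here. A gene that the rule would name is counted in its list but not reported here. Tables and plots were made with Python 3.11.15, numpy 2.4.6, pandas 2.3.3, scipy 1.17.1 and matplotlib 3.10.9.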

Additional observations from a re-analysis of the deposited data

How the results depend on the processing

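Over 20 alternative fits no member past the threshold turned its direction. Vhl, which did not pass, ran from -0.13 to 0.018 with a library left out, above 0 only without cKO replicate 3. The number of genes called over the whole table was 1014, and it was 511 with no filter on low values, 3143 with library weights, 1571 with voom on recovered reads and 71 to 1000 with a library left out (71 without control replicate 4, and 383, 175 and 444 without cKO replicates 2, 3 and 4). Of those calls 66.3% were higher, against 52.1% with quantile normalization, 56.2% with library weights and 46.7% after the GC correction. Of the 10 members 5 were called, and 3 were with no filter, 2 after the GC correction (Ddit4 and Egln1) and 0 to 6 with a library left out. Of the genes of the related lists 9 were called, and 4 were with no filter, 39 with library weights, 18 with voom, 14 among protein-coding genes only, an alternative chosen after seeing the data, and 0 to 14 with a library left out. The causes of these shifts were not tested, except that with no filter more genes, 23427, were tested. Whether replicate numbers pair the cultures is not given in the sources used here. Deviations from the group means of same-numbered libraries correlated at -0.04, -0.05 and 0.04 over 13326 genes. Those of libraries with other numbers correlated at -0.04 to 0.09. Such correlations cannot exclude a shared litter or batch. With the replicate block 64 genes, 1 member (Ddit4) and 1 gene of the related lists were called, and with the GC correction and the replicate block 3, 0 and 0. At an unadjusted p under 0.05 limma had 7 members in that last fit, beside 2947 of all 13293 genes tested there. Without control replicate 4 it had 6 members, beside 2721 of 13326 genes. Genes with few reads, such as Egln3, are limited by counting error.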
